A study of Triticum aestivum with 15 samples.

Results

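Roots of iron-deficient bread wheat were compared with leaves. The comparison uses the 6 libraries of day 11 without iron out of 15 in the series, chosen by their labels: 3 from roots and 3 from leaves, labelled as the third, the fourth and the fifth leaves. The plants were wild-type Triticum aestivum of the cultivar Fielder, a spring wheat much used for transformation, grown in hydroponic boxes for 12 days with 50 µM iron and then for 11 days with 0 µM. Both tissues were harvested after those 11 days. The names of the 3 libraries of a tissue carry 3 numbers that recur in the other tissue and in the earlier leaves. Libraries of one number are called plants 1, 2 and 3 here, but the labels do not say what a number marks, so the p-values measure the spread between these libraries. The other 9 libraries are earlier leaves and serve only as a backdrop: the first leaf on day 0 (still supplied with iron), the first leaf on day 1 and the third leaf on day 7, with 3 libraries each. Roots and leaves were both short of iron and no root library with iron enters here, so the contrast is one of tissue and gives no iron effect.

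Bread wheat is hexaploid and holds A, B and D subgenomes, each with its own copy of most genes. Grasses acquire iron by secreting phytosiderophores, chelators made from nicotianamine, from the root and taking the iron chelate back up. In the leaf, most iron serves photosynthesis in the chloroplast, and leaves of iron-starved grasses turn yellow because chlorophyll is lost. Roots and leaves therefore meet the same shortage with different organs, the root as the site of uptake and the leaf as the main consumer. The identifiers in the deposited table carry a chromosome and a confidence class but no names, and 0 of 269207 matched the gene table used here, so each gene appears under its identifier, with no function assigned.

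The 6 libraries held 19865687 to 25552816 counts. Values below are CPM, counts scaled to a common library size, with trimmed mean of M-values factors from these libraries. Tissue markers could not be looked up without names, so the tissue labels were checked by likeness of whole profiles. On log2 CPM, Pearson's r over genes (not independent of one another) was 0.972 to 0.978 between root libraries, 0.962 to 0.969 between day 11 leaf libraries, 0.762 to 0.903 between day 11 leaves and earlier leaves, and 0.459 to 0.485 between roots and leaves of day 11. The first principal component of the 6 libraries separated the tissues and took 93.7% of the variance. The second, with 2.0%, spread the 3 leaf libraries apart, with plants 1 and 3 at its ends. The leaf library of plant 1 had at least 1 count for 30.6% of the genes at least 16-fold higher in roots, against 19.1% in plant 2 and 18.4% in plant 3. Counts of root-biased genes, root-only genes and runs are given below with and without leaf libraries.

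Most genes differed between the tissues. Of 67922 genes tested, 24275 were higher in roots (35.7%) and 22194 lower (32.7%) by edgeR's quasi-likelihood test at a Benjamini-Hochberg adjusted p under 0.05, so 68.4% were called. In 46364 of the 46469 called genes the root value lay on the same side of the leaf value in all 3 plants. Past a tested 2-fold (glmTreat in edgeR, adjusted p under 0.05), 14139 genes were higher in roots (20.8%) and 13154 lower (19.4%). Among called genes, 8233 were at least 16-fold higher (12.1% of those tested) and 6785 at least 16-fold lower (9.99%); they are called root-biased and leaf-biased genes here. At 64-fold the counts were 6284 and 4918. Which direction is in the majority depends on the fit: 52.2% of called genes were higher in roots, 52.3% with RLE scaling and 57.4% with upper-quartile scaling. With all 15 libraries in the fit it was 47.6%, but that fit also changed the genes tested and the spread used. Upper-quartile scaling and the fit of all 15 moved the median log2 fold change of all genes by 0.13 and -0.10. Without the leaf libraries of plants 1, 2 and 3 in turn, the root-biased genes numbered 9687, 9294 and 9136. Without the root libraries in turn they numbered 8819, 8808 and 8579. Leaving out any library raised the leaf-biased genes too, to between 7038 and 7752. In bulk tissue, fewer cells of a type and less RNA per cell cannot be told apart.

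**Figure D1:**
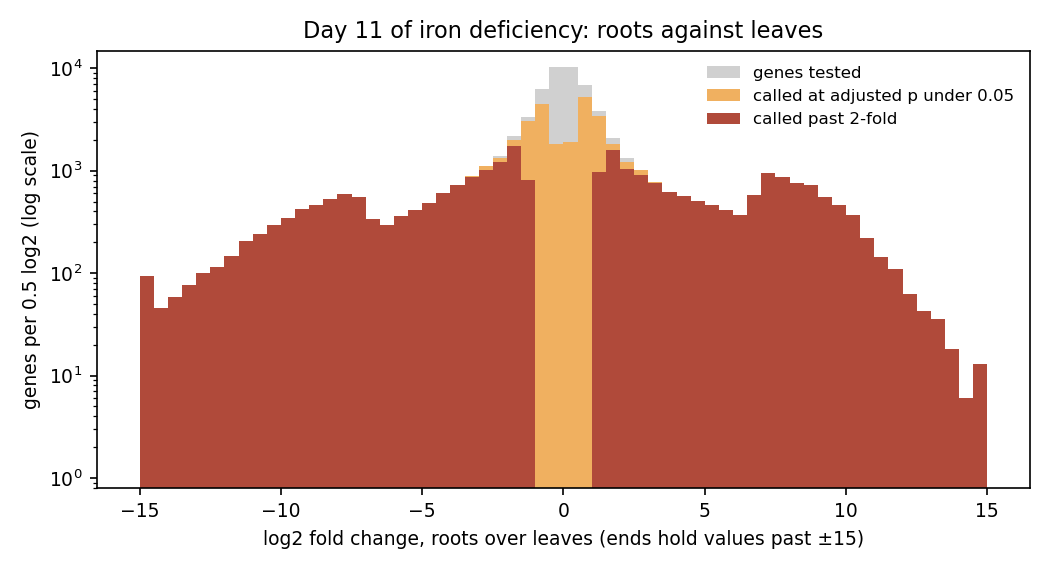
Distribution of log2 fold changes (x axis, roots over leaves) over 67922 genes, with the number of genes per bin on a log axis; grey bars are all tested genes, orange those called and red those called past 2-fold. Both sides carry long tails, with 8233 called genes at least 16-fold higher and 6785 at least 16-fold lower in roots.

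At the other extreme, the 95% interval of the log2 fold change lay within -0.5 to 0.5 for 5486 genes, 8.08% of those tested. How counts were spread over genes was compared by library, where 3 against 3 libraries cannot give an exact permutation p below 0.1, so a p under 0.05 was out of reach. The top 100 genes of a library took 14.98% ± 1.16 of its counts in roots and 13.2% ± 0.99 in leaves (SD, n = 3 each), an exact two-sided permutation p of 0.2 (adjusted 0.36 over 9 such measures). The top 1000 took 34.9% ± 1.05 in roots and 34.4% ± 1.27 in leaves (SD, n = 3 each; exact permutation p = 0.6). The most abundant 3032 ± 138 genes made up 50% of the counts in roots and 2996 ± 199 in leaves (SD, n = 3 each; exact permutation p = 0.8). Genes with at least 1 count numbered 77290 ± 1723 in roots and 73602 ± 1485 in leaves, with no overlap between the tissues (SD, n = 3 each; exact permutation p = 0.1, adjusted 0.3). The number detected can depend on depth, which averaged 23116227 counts in roots and 20560142 in leaves, but the part of depth was not tested. In plant 1, where the root library was the smaller, 75468 genes were seen in roots and 75100 in leaves. Plants 2 and 3, with larger root libraries, had 77509 and 78894 in roots and 73575 and 72131 in leaves. The leaf library of plant 1 had fewer counts than that of plant 2 (20428369 against 21386369) but more genes detected. It was also the leaf library with counts for the most root-biased genes (defined above), 30.6% of them.

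The largest increases in roots were ranked by fitted log2 fold change, at a mean of 50 CPM or more. The top 6 genes had no count in any leaf library of day 11. TraesCS1B02G239200 on chromosome 1B stood at 531, 441 and 565 CPM in roots of plants 1, 2 and 3, against 0 in all leaves. A group at 0 has a floor of 3 counts over its 3 libraries, 0.0508 CPM in leaves and 0.0418 CPM in roots, so this gene was at least 10092-fold higher in roots (edgeR adjusted p = 1.3e-06). TraesCS5A02G529900 on chromosome 5A had 249, 258 and 238 CPM in roots, at least 4890-fold more than in leaves (edgeR adjusted p = 6.7e-07). These bounds take the root mean and cover counting error only.

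TraesCS4B02G368400 on chromosome 4B was the least even of the set, with 254, 324 and 147 CPM in roots, at least 4753-fold higher (edgeR adjusted p = 1.8e-05). TraesCS6B02G429300 on chromosome 6B had 247, 154 and 242 CPM in roots and was at least 4218-fold higher. The root values of TraesCS1A02G210900 on 1A (178, 195 and 206 CPM) and TraesCS7D02G098100 on 7D (164, 188 and 184 CPM) varied less between plants, with bounds of 3804-fold and 3512-fold. All 6 genes also had 0 counts in the 9 earlier leaf libraries, which this comparison did not use.

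By fitted log2 fold change, the largest decreases in roots were in 6 genes with 0 counts in every root library of day 11. For a group at 0 counts the fitted fold runs past the bounds given below, so the order depends on how 0 is treated. TraesCS4D02G135000, with 6 counts in roots, had a fitted fold of 45721, above the bounds of some of these genes. TraesCS1D02G411300 on chromosome 1D had 0 CPM in roots, against 1526, 1839 and 2678 CPM in leaves of plants 1, 2 and 3, and was at least 48244-fold lower in roots (edgeR adjusted p = 5e-06). TraesCS6D02G340700 on 6D had 1068, 1287 and 1506 CPM in leaves (at least 30823-fold lower in roots), and TraesCS3A02G447500 on 3A had 682, 926 and 1233 CPM (at least 22686-fold). For TraesCS6D02G152700 on 6D, TraesCS2D02G200700 on 2D and TraesCS7B02G192500 on 7B, the leaf means were 899.6 ± 115, 855 ± 136 and 788 ± 95 CPM (SD, n = 3). Leaves of plant 3 held the highest value and leaves of plant 1 the lowest for each of these 6 genes. All 6 were expressed in every earlier leaf library, at 306 to 3889 CPM when scaled over all 15 libraries, whereas the root set was at 0 there.

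**Figure D2:**
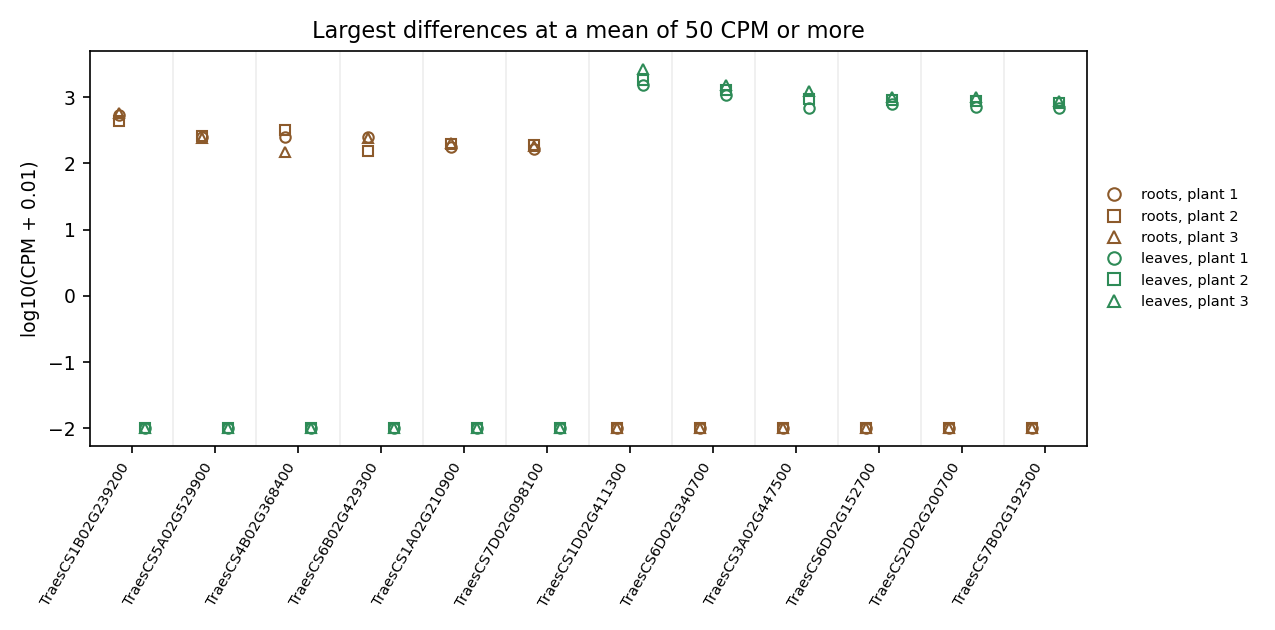
Level of the 12 genes with the largest fitted log2 fold changes at a mean of 50 CPM or more, as log10(CPM + 0.01), in each library. Brown symbols are roots and green symbols leaves, with the shape giving the plant, and -2 stands for 0 counts. Every gene is at 0 in all 3 libraries of one tissue, with up to 565 CPM in roots for the genes on the left and up to 2678 CPM in leaves for those on the right.

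In roots, the top 100 genes by share of counts included 19 that were at least 16-fold higher there, beside 12.1% of all genes tested and 7.50% of those with a mean over 100 CPM, and each of the 100 had counts in leaves, with a leaf mean of 100 CPM or more in 69. In leaves, 66 of the top 100 were at least 16-fold lower in roots, beside 9.99% and 21.9%. Both lists held 85 genes called in favour of their own tissue, beside 35.7% and 32.7% of all tested genes, but these lists were chosen on the same values. They had 16 genes in common, 16% of each. A share of counts depends on transcript length as well as on abundance, and no lengths were used here.

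The 5 genes with the largest share of root counts each took 0.334% to 0.412% of them and were called higher there. TraesCS6B02G425200 on chromosome 6B led with 4315, 4274 and 3319 CPM in roots, against 613, 642 and 228 CPM in leaves (edgeR log2 fold change 3.01, SE 0.41, adjusted p = 0.00036). TraesCS4A02G027800 on 4A had 3716, 3637 and 3056 CPM in roots, against 588, 614 and 268 CPM in leaves (log2 fold change 2.82, SE 0.35). TraesCS4B02G278000 on 4B had 3749, 3592 and 3034 CPM in roots, against 395, 406 and 200 CPM in leaves (3.37, SE 0.32). In these 3 genes the leaves of plant 3 lay far below those of plants 1 and 2, which were close to each other.

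The next 2 genes did not share that dip. TraesCS7D02G159800 on 7D stood at 3814, 3332 and 2846 CPM in roots, against a leaf mean of 261 ± 5.3 CPM (SD, n = 3). Its log2 fold change by edgeR was 3.67 with an SE of 0.21 (adjusted p = 4e-06). TraesCS7B02G063400 on 7B had 3556, 3204 and 2922 CPM in roots, against 230, 224 and 192 CPM in leaves (log2 fold change 3.91, SE 0.21).

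Among the top 100 root genes, 46 had a level in the leaves of plant 3 below 50% of that in both other plants, and none did so in the leaves of plant 1 or of plant 2. The median of these 46 genes in leaves of plants 1, 2 and 3 was 158, 166 and 44.5 CPM, while their root medians were 1444, 1397 and 1297 CPM. The other 54 had leaf medians of 240.1, 251 and 210.5 CPM. Over all 19810 genes whose leaf mean reached 10 CPM, 0.868% were that low in plant 3, against 7.12% of the 1151 genes among them that were called past 2-fold higher in roots. This split was made after the values were seen and is a description. All 46 were called higher in roots, as were 39 of the other 54 and 35.7% of all genes tested, but the top 100 and the low leaf value were both chosen on the data of this contrast.

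Of these 46 genes, 16 had 0 counts in all 9 earlier leaf libraries, and no other gene of the top 100 did. They stood at 10.5 to 642 CPM in day 11 leaves and at 788 to 4315 CPM in roots. Beside TraesCS6B02G425200 they included TraesCS6B02G186100 on 6B, with 3296, 3149 and 3010 CPM in roots, against 295, 327 and 65.8 CPM in leaves. TraesCS6D02G148600 on 6D had 3036, 3065 and 2768 CPM in roots, against 168, 178 and 26.9 CPM in leaves. The smallest difference was that of TraesCS3B02G068500 on 3B, with 898, 914 and 833 CPM in roots, against 425, 507 and 191 CPM in leaves (edgeR log2 fold change 1.24). In each of the 16 the leaves of plant 3 were the lowest of the 3, which follows from their being among the 46.

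**Figure D3:**
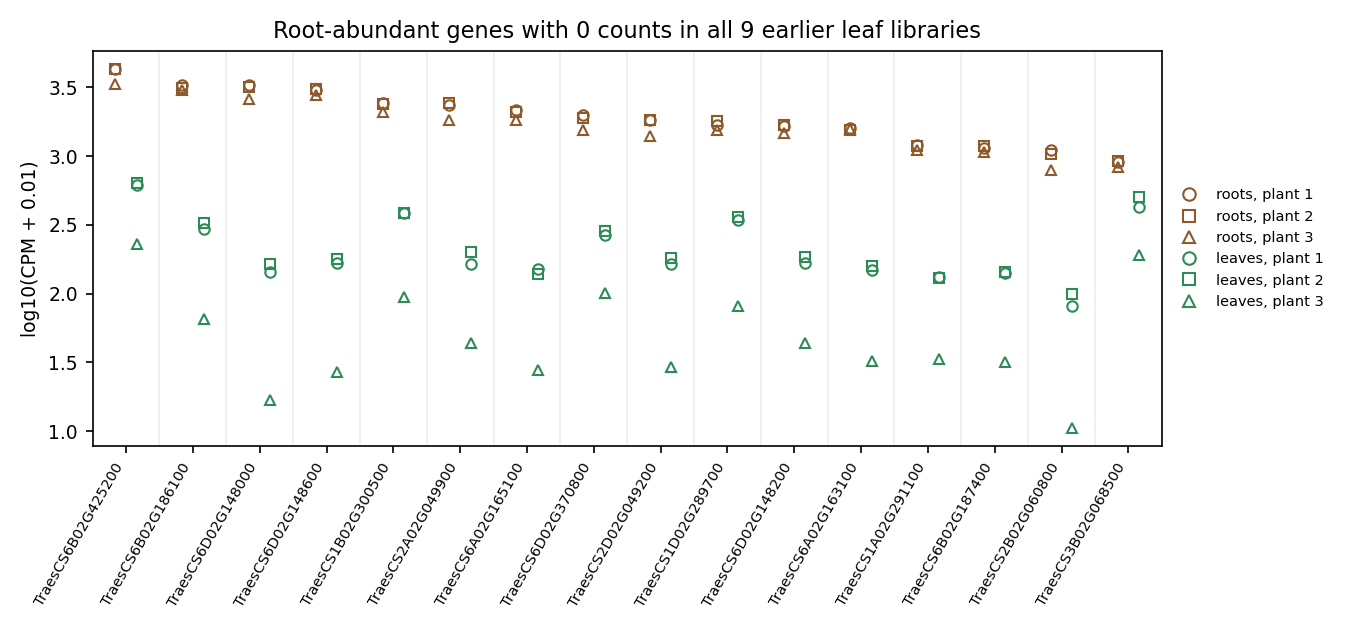
Level, as log10(CPM + 0.01), of the 16 genes that were among the top 100 of roots and had 0 counts in all 9 earlier leaf libraries; brown symbols are roots, green symbols leaves of day 11, and shapes give the plant. In each gene the leaves of plant 3 (triangles) lie below those of plants 1 and 2, while the 3 root values lie close together.

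The 5 genes with the largest share of leaf counts were nearly silent in roots. TraesCS4A02G177500 on chromosome 4A had 0, 0 and 0.267 CPM in roots, against 3520, 4449 and 4221 CPM in leaves (edgeR log2 fold change -15.27, SE 0.66, adjusted p = 1.2e-06). TraesCS4D02G135000 on 4D had 0, 0 and 0.229 CPM in roots, against 3534, 4637 and 4005 CPM in leaves (-15.48, SE 0.64). In both genes the few root counts came from plant 3 alone. The other 3 were seen in every root library: TraesCS5D02G169900 on 5D averaged 4.35 ± 0.28 CPM in roots and 3706 ± 502 in leaves (SD, n = 3 each; edgeR log2 fold change -9.73, SE 0.28). TraesCS5A02G165400 on 5A averaged 1.42 ± 0.30 CPM in roots and 3642 ± 441 in leaves, and TraesCS5B02G162800 on 5B averaged 0.287 ± 0.133 CPM in roots and 3482 ± 405 in leaves (SD, n = 3 each). Roots and leaves lay far outside each other's spread in all 5. All 5 were abundant in earlier leaves too, at 1297 to 13205 CPM, with the highest values in the first leaf.

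The 3 genes with the most counts among those with such narrow intervals had nearly equal values in both tissues. TraesCS4A02G245100 on 4A had 981, 1060 and 1182 CPM in roots, against 1007, 989 and 1178 CPM in leaves, and the 95% interval of its log2 fold change ran from -0.37 to 0.41. TraesCS4B02G070300 on 4B had 926, 979 and 1138 CPM in roots, against 1012, 1008 and 1204 CPM in leaves (interval -0.48 to 0.32). TraesCS1A02G317200 on 1A had 325, 333 and 362 CPM in roots, against 308, 340 and 379 CPM in leaves (interval -0.32 to 0.30). They were chosen for these intervals, so no test is given. Their earlier leaf levels, which the choice did not use, were lower: 9.48 to 183 CPM for TraesCS4A02G245100, 19.7 to 165 CPM for TraesCS4B02G070300 and 69.9 to 135 CPM for TraesCS1A02G317200.

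With at least 30 counts over the 3 libraries of one tissue and 0 in the other, 6331 genes were seen in roots only and 4238 in leaves only. Without the leaf library of plant 1 these numbers were 7948 and 3496. Without the root library of plant 3 they were 4986 and 5133, and only this removal made the leaf-only set the larger. The thresholds stayed the same, so leaving out a library can only lower its own tissue's set and raise the other. Low-confidence models made up 749 of the root-only and 836 of the leaf-only genes. The earlier leaves did not enter the choice but are leaves with the same library numbers. A difference between the 2 sets there is thus partly set by the choice, and the shares over all genes are not given here. In all 9 earlier leaf libraries, 4185 root-only genes (66.1%) had 0 counts, against 108 leaf-only genes (2.55%). Conversely, 60 root-only genes (0.948%) and 2255 leaf-only genes (53.2%) had counts in all 9.

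Together the root-biased genes took 13.8% ± 0.10 of the counts in roots and 0.242% ± 0.092 in leaves of day 11 (SD, n = 3 each), by choice. In the earlier leaves they took 0.338% ± 0.040 on day 0, 0.310% ± 0.053 on day 1 and 0.214% ± 0.070 on day 7 (SD, n = 3 each). The leaf-biased genes took 0.274% ± 0.0205 in roots and 28.1% ± 1.4 in leaves of day 11. Earlier leaves did not enter the choice but carry the same library numbers. There the leaf-biased genes took 40.5% ± 1.2 on day 0, 45.9% ± 3.1 on day 1 and 36.2% ± 3.8 on day 7 (SD, n = 3 each). Every earlier leaf library lay above every day 11 leaf library in this share.

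**Figure D4:**
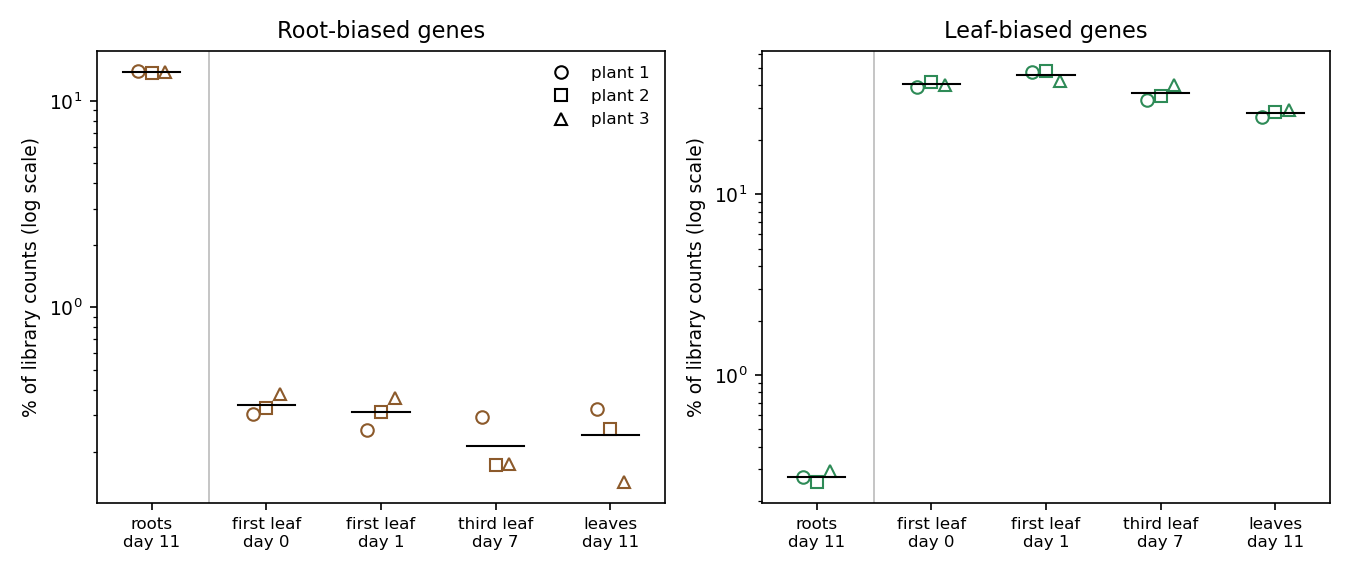
Share of each library's counts, in percent on a log axis, taken by the 8233 root-biased genes (left) and the 6785 leaf-biased genes (right); symbols are plants and lines are means. The day 11 values chose the lists, and in earlier leaves the leaf-biased genes took 33.0% to 47.9% of the counts and the root-biased genes 0.172% to 0.383%.

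Both lists were also followed on day 7 against day 0, in a fit of the 9 earlier leaf libraries that shares no library with the comparison of tissues. Of the leaf-biased genes 6180 could be tested, 845 were higher on day 7 and 1601 lower. Over all 58380 genes tested, 9.73% were higher and 12.7% lower, against 13.7% and 25.9% of the leaf-biased genes. The leaf-biased genes were 14.9% of all genes called higher and 21.6% of all called lower. They were chosen on day 11 leaves, which include the third leaf. They also made up 21.9% of genes over 100 CPM in the tissue comparison, against 9.99% of all genes there. The background was not matched for level, so these shares are a description. Only 955 of the 8233 root-biased genes had enough counts in leaves to be tested, so these do not stand for the list: 36 were higher (3.77%) and 236 lower (24.7%). They were chosen for a level in day 11 leaves far below roots, yet passed the filter through counts in earlier leaves. Their direction is therefore not free of the choice, and no result is drawn from it. Leaf position and plant age differ between day 7 and day 0 as well as iron supply. Single libraries moved these counts. The 1601 lower leaf-biased genes became 906 without day 7 library 2. The 845 higher ones became 479 and 422 without day 7 libraries 1 and 2, and 1303, 481 and 552 without day 0 libraries 1, 2 and 3. The 236 lower root-biased genes became 155 and 128 without day 7 libraries 1 and 2, and 146 without day 0 library 2. The 36 higher ones became 13, 15 and 85 without day 7 libraries 1, 2 and 3, and 14 and 22 without day 0 libraries 2 and 3.

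Some tissue-biased genes stood next to each other on the chromosomes. Identifiers are numbered along each chromosome, and high-confidence genes of one direction at most 300 apart in number (3 identifier steps) were chained into runs. Runs of 5 or more genes numbered 72 among root-biased genes, holding 411 of 7497 such high-confidence genes (5.48%), and 24 among leaf-biased genes, holding 134 of 5888 (2.28%). Of all tested high-confidence genes, 13.3% were root-biased and 10.4% leaf-biased. How many runs such shares would give without clustering was not worked out. Without the leaf libraries of plants 1, 2 and 3 in turn, the root-biased runs numbered 101, 92 and 92, and the leaf-biased runs 25, 24 and 28. Without the root library of plant 3 the leaf-biased runs numbered 36. Near-identical neighbours can share reads in counting, so single genes of a run are uncertain.

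The longest root run lay on chromosome 7B, from TraesCS7B02G384500 to TraesCS7B02G385600. All 11 genes tested there were root-biased, with log2 fold changes of 8.40 to 13.76, and they summed to 511 CPM in roots and 0.653 CPM in leaves. TraesCS7B02G385200 had 145, 111 and 117 CPM in roots, against 0.703, 0 and 0 CPM in leaves (edgeR SE of the log2 fold change 0.60, adjusted p = 8.8e-06). TraesCS7B02G384600 had 96.6, 86.9 and 104 CPM in roots, against 0.301, 0 and 0 CPM in leaves. TraesCS7B02G384500 had 100, 57.6 and 80.0 CPM in roots and 0 in all leaves, at least 1560-fold higher. Every leaf count of this run came from plant 1, and none of its 11 genes had a count in earlier leaves. A second run, from TraesCS5A02G129300 to TraesCS5A02G130900 on chromosome 5A, held 10 root-biased genes among 16 tested. Its first gene, TraesCS5A02G129300, had 162, 187 and 147 CPM in roots, against 5.32, 5.38 and 4.23 CPM in leaves, and TraesCS5A02G130100 followed with 32.8, 23.3 and 15.7 CPM in roots and 0 in leaves. TraesCS5A02G130000 had 9.87, 8.23 and 5.30 CPM in roots, against 0.301, 0 and 0 CPM in leaves. Some genes of the 5A run had counts in earlier leaves and others had none. TraesCS5A02G129300 stood at 4.38 to 9.21 CPM there. TraesCS5A02G129700 had 2.85 to 5.19 CPM in the first leaf of day 0, against a root mean of 2.58 CPM.

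Among leaf-biased genes, 3 runs of 7 shared the second place, and the one with the largest summed level is described. This run on chromosome 2A, from TraesCS2A02G066700 to TraesCS2A02G067300, took in every identifier of its stretch and had 0 counts in all roots. TraesCS2A02G066800 stood at 481, 573 and 474 CPM in leaves and was at least 12195-fold lower in roots (edgeR adjusted p = 1e-06). TraesCS2A02G066900 averaged 238 ± 20.1 CPM in leaves, and TraesCS2A02G066700 averaged 206 ± 22.0 CPM (SD, n = 3). Leaf-biased runs of 6 genes also lay on 2D, from TraesCS2D02G065100 (summed level 0.127 CPM in roots and 1124 CPM in leaves), and on 2B, from TraesCS2B02G078900 (0 CPM in roots and 934 CPM in leaves), against 0 and 1249 CPM for the 2A run. The runs on 2D and 2B are named because they stand on chromosomes of the same group, which was seen after the runs were listed. Whether they are copies of one another was not tested.

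The longest leaf run, 8 genes on chromosome 5D from TraesCS5D02G061400 to TraesCS5D02G062200, had a sum of 0.253 CPM in roots and 44.2 CPM in leaves. TraesCS5D02G061900 had 0, 0.0399 and 0 CPM in roots, a single count, against 16.2, 12.0 and 14.2 CPM in leaves. The pooled ratio of leaves to roots was 1014, with a 95% Clopper-Pearson counting interval of 182 to 40113. TraesCS5D02G061500 had 0 in roots and averaged 8.82 ± 0.455 CPM in leaves (SD, n = 3). TraesCS5D02G061700 had 0, 0.719 and 0 CPM in roots, all 18 counts in plant 2, against 6.38, 6.37 and 5.24 CPM in leaves.

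**Figure D5:**
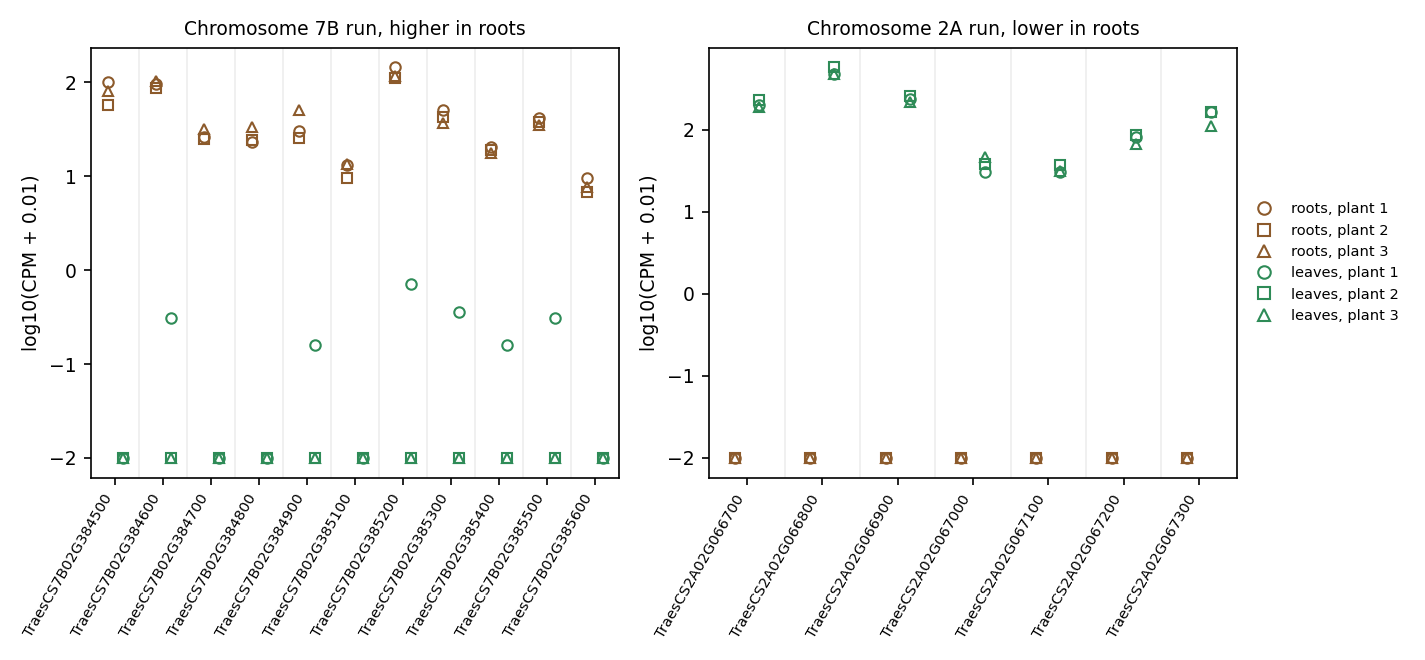
Level, as log10(CPM + 0.01), of each gene of a root-biased run on chromosome 7B (left) and a leaf-biased run on chromosome 2A (right), in identifier order; brown symbols are roots, green symbols leaves, shapes give the plant and -2 stands for 0 counts. Leaf counts in the 7B run occur in plant 1 alone, and the 2A run is at 0 in all roots.

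Shares of biased genes were also counted by position and by level, without a test. Within the outer 20% of high-confidence identifiers at either end of a chromosome, 16.8% of tested genes were root-biased and 12.8% leaf-biased, against 11.4% and 9.06% in the middle. A smaller part of the listed identifiers had enough counts to be tested at the ends (44.2%) than in the middle (59.2%). By level, 7.50% of the 1267 genes with a mean over 100 CPM were root-biased and 21.9% leaf-biased, while under 1 CPM these shares were 26.4% and 14.9%. At low levels the fitted fold depends on how counts of 0 are treated, so the low classes are the less certain. A gene of low mean level can also pass the filter through the counts of a single tissue. The shares of the low classes are therefore partly set by the filter, and no result is drawn from them.

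By subgenome the shares were close. Genes higher in roots made up 35.8%, 35.3% and 36.0% of those tested on A, B and D, and genes lower in roots 32.7%, 32.3% and 33.1%, close to the 35.7% and 32.7% of all genes. Their median log2 fold changes were 0.04, 0.05 and 0.05, beside 0.05 over all genes. By chromosome, root-biased genes ran from 10.4% on 4B to 14.1% on 7D, and leaf-biased genes from 8.10% on 4D to 11.3% on 6D. The 906 genes without an assigned chromosome had 17.2% and 18.2%.

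Low-confidence gene models, those with weaker evidence in the annotation, made up 11350 of the genes tested, of which 22.7% were higher and 27.8% lower in roots, against 38.4% and 33.7% of 56572 high-confidence models. They took 5.52% ± 0.02 of the counts in roots and 5.05% ± 0.05 in leaves, without overlap (SD, n = 3 each; exact permutation p = 0.1, the smallest possible). TraesCS4B02G400500LC on 4B, the most abundant low-confidence model higher in roots, had 1608, 1494 and 1337 CPM in roots, against 178, 168 and 57.2 CPM in leaves (edgeR log2 fold change 3.46, SE 0.43). TraesCS3D02G388600LC on 3D had 786, 724 and 595 CPM in roots, against 64.4, 41.7 and 39.5 CPM in leaves. In the other direction, TraesCS5A02G397000LC on 5A had 0, 0.0799 and 0.0762 CPM in roots, against 626, 895 and 792 CPM in leaves (edgeR log2 fold change -13.62, SE 0.39). TraesCS5D02G259800LC on 5D had 0.146, 0.280 and 0.267 CPM in roots, against 610, 296 and 446 CPM in leaves. Its earlier leaf values differed between stages: the medians were 0, 1.21 and 1254 CPM on days 0, 1 and 7.

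Spread between plants was close in both tissues. The biological coefficient of variation was 0.177 in roots and 0.183 in leaves when each was fitted alone. Over 13353 genes with 10 CPM or more in both, the median SD of log2 CPM was 0.103 in roots and 0.111 in leaves. In roots, the most variable genes at 50 CPM or more were TraesCS3A02G475200LC on 3A (25.2, 22.3 and 107 CPM) and TraesCS2B02G613100 on 2B (110, 87.5 and 22.7 CPM). In leaves, they were TraesCS6D02G148000 on 6D (145, 164 and 16.9 CPM) and TraesCS2B02G060800 on 2B (80.9, 99.1 and 10.5 CPM). Both leaf genes belong to the 16 described above. TraesCS3A02G475200LC was higher in roots (edgeR log2 fold change 2.23, SE 0.65, adjusted p = 0.016), but the call was lost in 4 of 12 alternative fits, at edgeR adjusted p of 0.052 to 0.069. Among these were the fits without the leaf library of plant 2 (edgeR adjusted p = 0.053) and without that of plant 3 (0.054). Without the root library of plant 3 its log2 fold change was 1.12.

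Traces of root-biased genes in leaves were uneven across the leaf libraries. For 419 root-biased genes at 50 CPM or more in roots, the median level in leaves of plants 1, 2 and 3 was 1.04%, 0.499% and 0.233% of the root mean, and 86, 153 and 163 of the genes were at 0. Plant 1 leaves alone had counts for 1148 of the 8233 root-biased genes, against 348 for plant 2 alone and 375 for plant 3 alone. In the other direction, the 943 leaf-biased genes at 50 CPM or more in leaves had a median in roots of plants 1, 2 and 3 of 0.266%, 0.248% and 0.340% of the leaf mean.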

How the data were processed

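The authors deposited 1 table of whole-number raw counts per gene for 15 libraries, unnormalized. Per the labels' protocols, RNA came from about 50 mg of frozen tissue, libraries from a stranded mRNA kit and reads were paired-end of 150 nt. HISAT2 2.2.1, Trim Galore 0.6.7, featureCounts 2.0.3 and StringTie 2.2.3 are named in the submitters' processing notes. The sources used here give no genome build, annotation version, strand setting or treatment of multimapping reads, so near-identical copies, A, B and D copies included, and overlapping or antisense genes are uncertain.

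Counts of the 6 day 11 libraries went into the quasi-likelihood test of edgeR 4.0.16 under R 4.3.3 (filterByExpr, TMM factors 0.95 to 1.05, glmQLFit with tissue as the only term, biological coefficient of variation 0.181). The SE is the size of the log2 fold change divided by the square root of F. Values of earlier leaves are scaled over all 15 libraries. DESeq2 1.42.0 was an alternative. The analysis was tested on simulated data: of genes changed 4-fold, 86 of 100 were recovered for roots against leaves, and of those changed 2-fold, 55 of 100. For day 7 against day 0 with 6 libraries, 44 of 100 and 1 of 100 were recovered. False calls numbered 4 for roots against leaves and 0 for day 7 against day 0. Each simulation changed only these genes, while 68.4% of genes were called between the tissues. The rates therefore do not carry over to the data.

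The text names the 6 largest fold changes per direction at 50 CPM or more, the 5 largest count shares per tissue, 3 abundant genes with intervals within 0.5, up to 3 genes of the 2 longest runs per direction (ties broken by the larger summed CPM), 2 low-confidence models per direction and the 2 most variable genes per tissue. The 16 genes at 0 in earlier leaves and their examples were picked after their values were seen. Members and lists were chosen with earlier results of these data known. No 2 libraries of a tissue agreed within sampling noise (chi-square per degree of freedom 4.32 or more).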

Additional observations from a re-analysis of the deposited data

How the results depend on the processing

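The edgeR fit was repeated with other scalings (RLE, upper quartile), without the filter, with DESeq2, with all 15 libraries, with the library number as a replicate block and without each library. Over these and the alternatives given next, 285 summary values stayed within the tolerance and 53 did not; the tolerance was 1.5 times for a count, 1 SD between libraries for a share of counts and the 95% binomial interval for a share of genes, so counts inside it still differ. Of the values for named genes, 536 kept their call and direction, 4 lost the call and 0 reversed. The 4 all concern TraesCS3A02G475200LC: the replicate block (adjusted p = 0.069), all 15 libraries (0.052), and the fits without leaf library 2 (0.053) or 3 (0.054). With the replicate block 22856 genes were called higher and 20774 lower in roots. The shared numbers were not taken as pairing in the main fit, since the labels do not say what they mark. Deviations of same-numbered root and leaf libraries from their group means correlated at 0.014, 0.016 and 0.001. Those of unlike numbers correlated at -0.028 to 0.013. With 3 libraries per tissue these values cannot show whether the libraries are paired. All 15 libraries gave 19331 and 21273, upper-quartile scaling 26868 and 19946, no filter 26253 and 23789, and DESeq2 23050 and 20965. Leaving out a library gave 23247 to 24532 higher and 20444 to 22093 lower.

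High-confidence models alone gave the top 1000 genes 36.3% of the counts in roots and 35.9% in leaves, and leaving out a library gave 34.5% to 35.5% and 33.8% to 35.0%. Asking for 100 counts left 3292 genes in roots only and 2410 in leaves only, and leaving out a library gave 4986 to 7948 and 3496 to 5133. With a fold of 4 in place of 16, the root-biased genes took 2.46%, 2.28% and 1.87% of the counts on days 0, 1 and 7, and the leaf-biased genes 51.7%, 56.6% and 46.4%. For day 7 against day 0 in 6 libraries alone, 22 root-biased genes were higher and 152 lower; without single libraries the ranges were 13 to 85 and 128 to 275, and for leaf-biased genes 422 to 1303 and 906 to 2297. Leaving out a library gave 73 to 101 root-biased and 24 to 36 leaf-biased runs. Runs numbered 14 (root-biased) and 9 (leaf-biased) at a distance of 100, 133 and 66 at 500, and 153 and 87 at a fold of 4. With the outer 10% as ends, root-biased genes were 19.0% at the ends and 12.1% in the middle, and leaf-biased genes 14.3% and 9.58%. With the outer 30% these were 15.2%, 10.8%, 11.8% and 8.55%. Leaving out a library gave 16.7% to 18.4% and 11.5% to 13.0% for root-biased genes at the ends and in the middle, and 12.7% to 13.9% and 8.98% to 9.84% for leaf-biased genes. The cause was not tested beyond the alternatives themselves, which take in other genes or libraries. Genes under the filter are limited by depth.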
